A study of Mus musculus with 3 samples.

Results

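The autophagy machinery was described here through 36 mouse genes, chosen by symbol from the deposited transcript tables and matched by identifier to the gene tables. All 36 symbols were found among 55536 annotated genes, and all belong to the 22028 protein-coding genes. The samples were 3 libraries of 1 group, which the labels number as biological replicates 1, 2 and 3. The cells were macrophages, phagocytes grown in culture from the bone marrow of C57BL/6J mice. Every culture had Lipid A, the membrane anchor of bacterial lipopolysaccharide, at 100 ng/ml for 12 h, then a washout of 12 h, then Lipid A at 100 ng/ml again for 40 min. Total RNA of the chromatin fraction, which is rich in RNA still being made or spliced, was depleted of ribosomal RNA and sequenced. The labels give no transgene or altered allele, list sex and age as not collected, and give all 3 libraries the same donor, so the spread may be technical and p-values measure only differences between these samples. Cells without Lipid A were not analysed here, and no response to Lipid A is given.

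Autophagy encloses part of the cytoplasm in a new double membrane, the autophagosome, which then fuses with lysosomes. A kinase complex around ULK1 starts the process, and a lipid kinase complex around Beclin 1 marks the growing membrane with phosphatidylinositol 3-phosphate. ATG9 and ATG2 proteins supply lipid, a ubiquitin-like cascade attaches ATG8 proteins such as LC3 to the membrane, and cargo receptors bind both ATG8 proteins and what is to be degraded. In macrophages this machinery also clears intracellular bacteria and damaged organelles, and it restrains inflammasome activity.

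The libraries held 13802716 to 17187524 expected counts in annotated genes, and 0.182% to 0.223% of these lay in the 36 genes. All 10 macrophage markers asked for were detected, that is, had a mean of at least 10 expected counts, at a summed level of 1120 to 1254 TPM per library. TPM is the count per transcript length, scaled to the same total in each library. None of 8 neutrophil, 6 T-cell and 6 B-cell markers found was detected, and their summed levels stayed at or below 1.19, 0.36 and 0.27 TPM. In the authors' other quantification, estimated from the reads, 1, 3 and 2 of these markers were detected and the sums reached 4.11, 22.4 and 3.94 TPM, with Cd3d at 15.6 TPM beside Cd3e at 0.0403 TPM. The fibroblast list had 3 of 7 genes above the minimum. Col1a1, Col1a2 and Col3a1 had 0 counts in replicate 1 and 20 to 32 counts in the others, and the list's sum lay between 0.31 and 1.78 TPM. From the reads, 6 of 7 were detected and the sum lay between 12.85 and 19.1 TPM, of which Thy1 held 12.5 TPM on average, against 0.0967 TPM from the alignment. The part of these cell types in the results was not tested. RNA input was 1 µg, 250 ng and 500 ng for replicates 1, 2 and 3. As each amount was used once, amount and library cannot be told apart.

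Of the 36 autophagy genes 35 were detected, against 49.7% of all protein-coding genes. The exception was Map1lc3a, with 8, 4 and 7 expected counts. The median level of the 36 genes was 15.4 TPM, against 7.32 TPM for detected protein-coding genes, and their median percentile among all protein-coding genes was 83.8. Among the 36 genes, 9 stood in the top 10% of protein-coding genes and 0 in the lower 50%. Levels spanned a wide range, from Map1lc3a with 0.58 ± 0.187 TPM to Sqstm1 with 746 ± 313 TPM (SD, n = 3, as for all values below). Sqstm1 alone held 49.0% ± 9.81 of the TPM summed over the 36 genes. In bulk RNA, fewer cells that transcribe a gene and less RNA per cell cannot be told apart. In the order of mean TPM, 8 of 35 neighbouring pairs differed by more than the larger of their SDs. These pairs were Sqstm1 over Uvrag, Uvrag over Rb1cc1, Optn over Nbr1, Gabarap over Atg4a, Atg3 over Map1lc3b, Gabarapl2 over Gabarapl1, Atg10 over Wipi1 and Wipi1 over Atg101. The other neighbours did not differ beyond their spread.

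**Figure D1:**
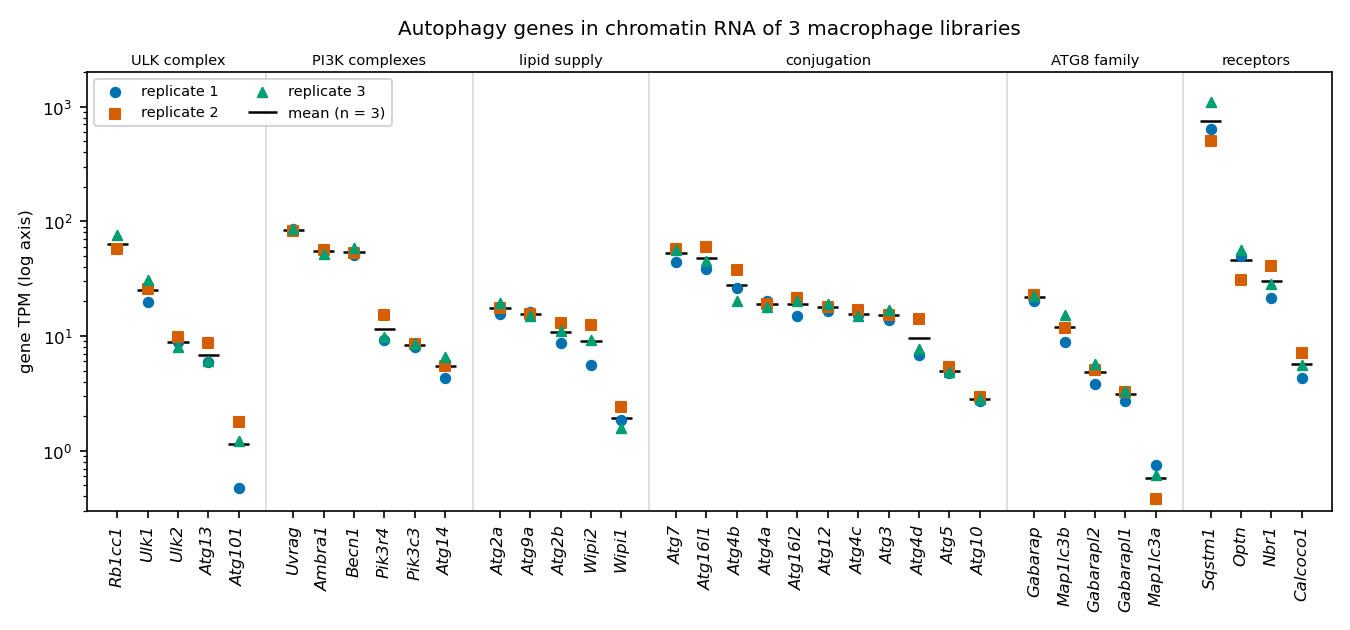
Gene TPM on a log axis for each of the 36 genes, grouped by role, with 1 point per library and a line at the mean of 3 libraries. Sqstm1 stands above the other genes at 504 to 1099 TPM, and Map1lc3a lies lowest at 0.38 to 0.75 TPM.

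The genes of the initiating ULK kinase complex spread from 1.15 to 63.1 TPM, with a median of 8.86 TPM. Rb1cc1 (ENSMUSG00000025907.14, chromosome 1, 6206197 to 6276648, plus strand), which encodes the scaffold FIP200, led with 57.1, 57.0 and 75.3 TPM in replicates 1, 2 and 3. Its mean of 63.1 ± 10.6 TPM lay in the top 10% of protein-coding genes, and replicate 3 stood above the other 2. Ulk1 (ENSMUSG00000029512.11, chromosome 5, 110784488 to 110810097, minus strand), the kinase itself, had 19.7, 25.5 and 31.1 TPM, and its paralog Ulk2 had 8.82, 9.76 and 8.01 TPM. The ranges of the kinase genes did not overlap, and Ulk1 held 73.7% ± 5.32 of their summed TPM. By expected counts, which take no account of length, the share of Ulk1 was 55.6%. Atg13, which encodes an adaptor of the kinases, had 6.89 ± 1.52 TPM. Atg101, which encodes the partner that stabilises ATG13, was the lowest detected gene of all, with 0.47, 1.78 and 1.21 TPM from 7, 18 and 8 counts, so its level rests on few reads.

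The lipid kinase complexes held a higher median, 32.8 TPM, and 3 of their 6 genes lay in the top 10% of protein-coding genes. Uvrag (ENSMUSG00000035354.9, chromosome 7, 98885021 to 99141141, minus strand), a Beclin 1 partner in the complex that acts on endosomes and on autophagosome maturation, had 85.7, 82.9 and 85.6 TPM. This was the second highest level of the 36 genes, and the libraries lay close together in TPM (84.7 ± 1.62), though not in the scaled counts given below. Ambra1, which encodes a regulator of Beclin 1 and a ubiquitin ligase adaptor, had 56.1, 56.7 and 52.4 TPM. Becn1 (ENSMUSG00000035086.13, chromosome 11, 101285952 to 101302286, minus strand), which encodes Beclin 1, had 50.4, 53.3 and 58.7 TPM. The ranges of Ambra1 and Becn1 overlapped. Atg14, which encodes the subunit that directs the complex to sites of autophagosome formation, was lowest with 4.28, 5.50 and 6.62 TPM, and its range did not reach that of Uvrag. The catalytic subunit gene Pik3c3 had 8.34 ± 0.244 TPM and the regulatory subunit gene Pik3r4 had 11.5 ± 3.37 TPM.

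Genes for lipid supply and for reading phosphatidylinositol 3-phosphate stood at a median of 10.9 TPM, with none in the top 10%. Atg2a, which encodes a lipid transfer protein that bridges membranes, had 15.5, 17.4 and 19.3 TPM. Atg9a, which encodes the scramblase of the vesicles that seed the new membrane, had 16.25, 15.7 and 14.9 TPM, within the range of Atg2a in 2 of 3 libraries. Atg2b had 8.73, 12.9 and 11.0 TPM, and Atg2a held 61.7% ± 3.75 of the summed TPM of this pair. Of the genes for WIPI proteins, which bind the marked membrane, Wipi2 had 5.61, 12.5 and 9.15 TPM and Wipi1 had 1.85, 2.41 and 1.59 TPM. Wipi2, whose product recruits ATG16L1, was the higher of the pair in each library and held 81.4% ± 5.42 of their TPM.

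The conjugation genes encode the cascade that attaches ATG8 proteins to lipid and the ATG4 proteases that process them. Their median was 17.8 TPM. Atg7 (ENSMUSG00000030314.16, chromosome 6, 114643097 to 114860614, plus strand), the enzyme that activates both ubiquitin-like proteins, had 44.6, 57.5 and 56.04 TPM. Atg16l1 (ENSMUSG00000026289.15, chromosome 1, 87755870 to 87792428, plus strand), which encodes the part that brings the ATG12-ATG5 conjugate to the membrane, had 38.45, 59.6 and 45.5 TPM. These were the 2 conjugation genes in the top 10% of protein-coding genes, and their ranges overlapped. The enzyme gene Atg3 had 15.2 ± 1.47 TPM, Atg12 had 17.8 ± 1.32, Atg5 had 4.98 ± 0.325 and Atg16l2 had 19.0 ± 3.48 TPM. Atg10, whose product joins ATG12 to ATG5, was lowest, with 2.70, 2.92 and 2.85 TPM. The steps of the cascade thus differed in level, and the conjugating enzyme gene Atg10 lay below Atg7, Atg3, Atg12 and Atg5 in each library. In the table estimated from the reads, Atg10 stayed below Atg7, Atg3 and Atg12 but lay above Atg5 in each library. There Atg10 had 8.16, 11.1 and 10.7 TPM and Atg5 had 6.35, 6.59 and 4.38 TPM. Among the proteases, Atg4b had 26.0, 37.95 and 20.3 TPM and Atg4a had 20.4, 18.9 and 17.9 TPM, while Atg4c had 15.6 ± 1.00 and Atg4d had 9.55 ± 3.97 TPM. Atg4b held 38.2% ± 4.96 of the protease TPM and was the highest of the 4 in each library, while Atg4d held 12.9% ± 3.03. By expected counts Atg4b no longer led, with 29.2% beside 29.3% for Atg4d. When TPM was summed over protein-coding transcripts alone, an alternative chosen after the data were seen, the share of Atg4b was 14.3% ± 1.76 and the lowest of the 4, while Atg4c and Atg4a held 33.0% and 32.0%.

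The ATG8 genes encode the small ubiquitin-like proteins that coat the membrane, and they had the lowest median of the roles, 4.87 TPM. Gabarap (ENSMUSG00000018567.14, chromosome 11, 69991143 to 69994951, plus strand) led with 20.3, 22.85 and 22.35 TPM. Map1lc3b (ENSMUSG00000031812.16, chromosome 8, 121590361 to 121598760, plus strand), which encodes the LC3 protein most used as a marker of autophagosomes, had 8.86, 11.8 and 15.2 TPM. Gabarapl2 had 3.79, 5.11 and 5.72 TPM, Gabarapl1 had 3.10 ± 0.333 TPM, and Map1lc3a had 0.75, 0.38 and 0.61 TPM. The order of the top pair was the same in each library, and Gabarap held 51.9% ± 4.26 of the ATG8 TPM against 27.9% ± 4.02 for Map1lc3b. By expected counts the order of this pair turned, with 25.3% for Gabarap and 57.1% for Map1lc3b. Map1lc3b-202, the leading transcript of Map1lc3b, has 4138 bases and Gabarap-201 has 1351, and TPM divides by length.

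**Figure D2:**
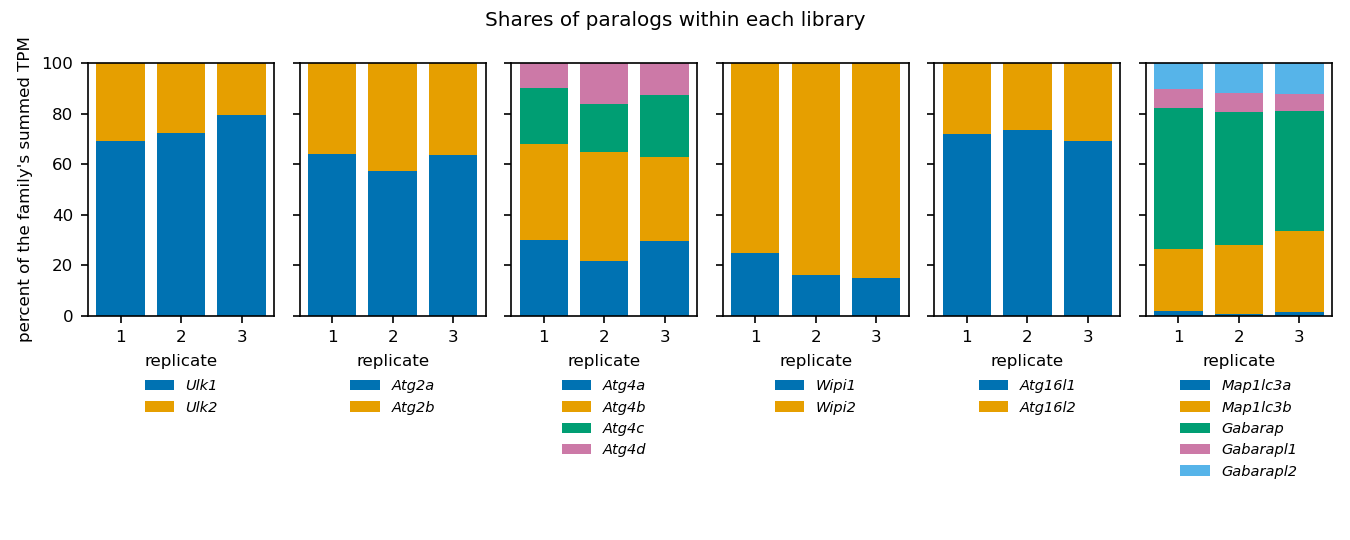
Percent of each paralog family's summed TPM held by each gene, with 1 bar per library. The leading gene was the same in all 3 libraries in each of the 6 families, with Ulk1 at 69.1% to 79.5% and Gabarap at 47.3% to 55.7%.

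The cargo receptors were the highest role by TPM, with a median of 37.975 TPM and 55.8% of the TPM of all 36 genes. Sqstm1 (ENSMUSG00000015837.15, chromosome 11, 50199366 to 50210827, minus strand) encodes sequestosome 1, which gathers ubiquitinated cargo, is itself degraded by autophagy and releases the stress factor NRF2 from its inhibitor. It had 634, 504 and 1099 TPM, which placed its mean at percentile 99.9 of protein-coding genes. Replicate 3 was the highest library and replicate 2 the lowest. Optn, the gene for the receptor optineurin that also binds ubiquitin chains in NF-kB signalling, had 50.05, 31.0 and 56.55 TPM, again with replicate 2 lowest. Nbr1, which encodes a relative of sequestosome 1, had 21.3, 40.5 and 28.5 TPM, and Calcoco1, which encodes a receptor in turnover of endoplasmic reticulum and Golgi, had 4.32, 7.15 and 5.61 TPM. For Nbr1 and Calcoco1, in contrast to Optn, replicate 2 was the highest library. The 3 receptors other than Sqstm1 stayed at or below 56.55 TPM in every library.

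The 90 bases before the annotated start of Sqstm1 are shown because this gene carries the largest value. They are given from the RefSeq promoter table (GRCm38.p6, chr11:50210828-50210917, minus strand), with GGGCGG and its reverse complement CCGCCC, the words bound by SP family factors, in capitals.
Sqstm1: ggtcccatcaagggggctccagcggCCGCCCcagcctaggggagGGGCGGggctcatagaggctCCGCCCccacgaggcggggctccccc
The stretch holds the word 3 times. The table gives windows from 250 bases before to 50 bases after RefSeq starts, 33 windows for 30 genes of the set, and a RefSeq start can lie inside the gene as GENCODE annotates it. In these windows GGGCGG on either strand was present for 21 of the 30 genes (70.0%) and for 51.0% of 16522 protein-coding genes. This is a match of letters, not a measured binding site.

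The E-box CACGTG is the core of the element through which TFEB, TFE3 and MITF, the transcription factors of the lysosome and autophagy programme, bind DNA. It was present on either strand (the word is its own reverse complement) for 4 of the 30 genes (13.3%), against 9.18% of the 16522 genes. The 4 genes were Atg7, Atg3, Atg14 and Atg5, and Atg3 held the word 2 times. Their sites are given with 12 bases on each side, 5′ to 3′ on the gene's strand and with CACGTG in capitals, so that their flanks can be compared. The RefSeq start behind the site lies 27999 bases inside the GENCODE span of Atg7 and 2215 bases inside that of Atg14, so these 2 sites are not at the start of the annotated gene, while the starts of Atg3 and Atg5 lie within 44 bases of it.
Atg7 (chr6:114670952-114670981, plus strand): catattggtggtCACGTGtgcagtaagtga
Atg3 (chr16:45158723-45158752, plus strand): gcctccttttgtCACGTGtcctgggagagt
Atg3 (chr16:45158746-45158775, plus strand): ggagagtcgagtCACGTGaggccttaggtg
Atg14 (chr14:47568418-47568447, minus strand): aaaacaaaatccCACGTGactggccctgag
Atg5 (chr10:44268313-44268342, plus strand): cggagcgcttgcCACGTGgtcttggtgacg
The levels of these 4 genes ran from 4.98 TPM for Atg5 to 52.7 TPM for Atg7, so genes with the word were found at both low and high levels of the set. Becn1, Atg12, Pik3c3, Rb1cc1, Atg16l1 and Map1lc3a had no window in the table.

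The libraries differed in the level of several genes by more than counting error. For comparisons between libraries, counts were scaled to CPM, the count over the library total, with TMM factors, which bring most genes to equal levels. A chi-square test against Poisson sampling, with edgeR TMM library sizes and p-values adjusted by Benjamini-Hochberg over 14320 genes, called 23 of 35 tested autophagy genes. It called 54.9% of all tested genes. The spread itself was somewhat lower than elsewhere, with a median coefficient of variation of 12.5% over the detected genes of the set against 16.5% over detected protein-coding genes. These values include counting error and were not matched for level, and the set has the higher median, 15.4 against 7.32 TPM. Not called were Ulk2, Atg13, Atg101, Atg14, Atg2b, Wipi1, Atg4c, Atg5, Atg10, Gabarap, Gabarapl1 and Gabarapl2, of which Ulk2, Atg2b and Atg4c had 386 to 907 counts on average and the others 232 or fewer. At low counts the test can find only large differences. All 4 receptor genes and 5 of 6 lipid kinase genes were called, against 1 of 4 tested ATG8 genes, Map1lc3b. Gabarap, Gabarapl1 and Gabarapl2 had 227, 66.7 and 87.0 counts on average, fewer than any called lipid kinase gene (331 to 2724). The part of this in the contrast between roles was not tested. Uvrag, whose TPM lay close together, was called at 194, 148 and 175 CPM in replicates 1, 2 and 3 (adjusted p = 7.23e-22, chi-square test). Without replicate 2 the count fell to 12 of 34 tested, beside 28.0% of all genes tested without it.

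In 8 of the 36 genes the highest library exceeded the lowest by over 1.5 times, and the same held for 37.1% of detected protein-coding genes. Sqstm1 varied most among the detected genes, with 539, 335 and 851 CPM in replicates 1, 2 and 3, a ratio of 2.54 with an adjusted p too small for the program to represent. Optn had 110, 49.5 and 100.8 CPM, a ratio of 2.23 (adjusted p = 3.47e-92, chi-square test with edgeR library sizes). Both receptor genes were lowest in replicate 2, and their highest libraries differed. Ulk1 had 36.02, 30.5 and 48.9 CPM (ratio 1.61, adjusted p = 1.26e-16, same test) and was highest in replicate 3, as Sqstm1 was. Atg4a had 27.2, 15.4 and 17.6 CPM (ratio 1.76), with replicate 1 highest. Wipi2 had 17.5, 28.8 and 25.8 CPM (ratio 1.65), with replicate 1 lowest. Atg4b had 30.0, 39.2 and 25.9 CPM (ratio 1.51), with replicate 2 highest, so no single library was high for all of these genes. Atg101 and Map1lc3a had ratios of 1.91 and 2.70 at 18 counts or fewer per library, where counting error is large, and Atg101 was not called (adjusted p = 0.245, same test).

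On TMM-scaled CPM, replicate 2 was the lowest library for 22 of the 36 genes, while it was the lowest for 36.1% of detected protein-coding genes. The lowest library depended on the scale. In deposited TPM, replicate 1 was lowest for most of the 36 genes. These included Becn1, Atg7 and Atg12, where replicate 2 was lowest by CPM. Replicate 2 was lowest in TPM only for Rb1cc1, Uvrag, Map1lc3a, Sqstm1 and Optn, which were lowest in it on both scales. Replicate 2 was made from the smallest amount of RNA. The non-coding loci Gm42418 and Gm26917 at the ribosomal RNA genes held 21.4% of its counts against 14.7% and 16.5% in replicates 1 and 3. Their part in the differences between libraries was not tested.

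**Figure D3:**
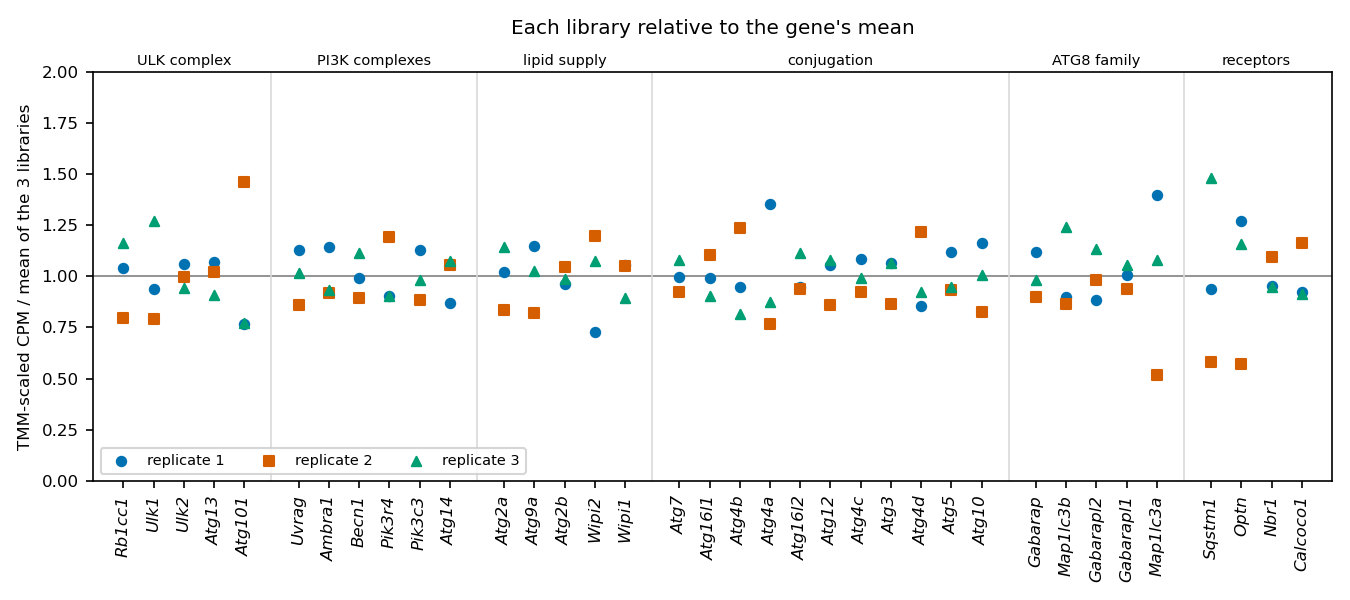
TMM-scaled CPM of each library divided by the mean of the 3 libraries for the same gene, on a linear axis. Sqstm1 and Optn lie low in replicate 2 (335 and 49.5 CPM), and replicate 2 is the lowest library for 22 of the 36 genes. In deposited TPM, replicate 1 is the lowest library for most of them.

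Much of the TPM of the autophagy genes lay in annotated transcripts that keep an intron or part of one. GENCODE M21 lists transcripts of the type retained intron for 24 of the 36 genes, and these held a median of 52.5% of the gene's TPM, against 41.9% over 6289 protein-coding genes with such transcripts and at least 1 TPM. They held over 50% of the TPM in 16 of the 24 genes, beside 36.6% of the 6289 genes. In the table estimated from the reads the gap was smaller, with 12 of the 24 genes above 50% beside 39.6% of the 6289, and medians of 50.1% and 42.9%. The set also has more annotated transcripts of this type, a median of 3 per gene against 2, and the part of this in the shares was not tested. TPM divides by length, so these shares are not shares of reads, and shares of counts are not given. The retained intron transcript with the highest TPM has 613 bases in Ulk1, against 5213 for the leading coding transcript. In Map1lc3b it is the longer, with 4138 against 2633 bases. The transcript with the highest TPM was protein-coding for 22 genes, a retained intron transcript for 13 and a processed transcript for 1. Of these 13, only Becn1-210 and Map1lc3b-202 contain a whole intron of the main coding transcript. The others begin or end inside an intron and hold only part of it. Over the 36 genes, transcripts that run across at least 1 exon-intron boundary of the main coding transcript held a median of 50.9% of TPM. At the ends stood Map1lc3b with 94.3% ± 1.21, and Atg5, Atg10, Gabarapl1 and Map1lc3a with 0. This share was not computed for other genes, so it has no background. Some protein-coding transcripts, such as Wipi1-201 and Calcoco1-204, also count as crossing, so the share is not one of unspliced RNA alone.

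**Figure D4:**
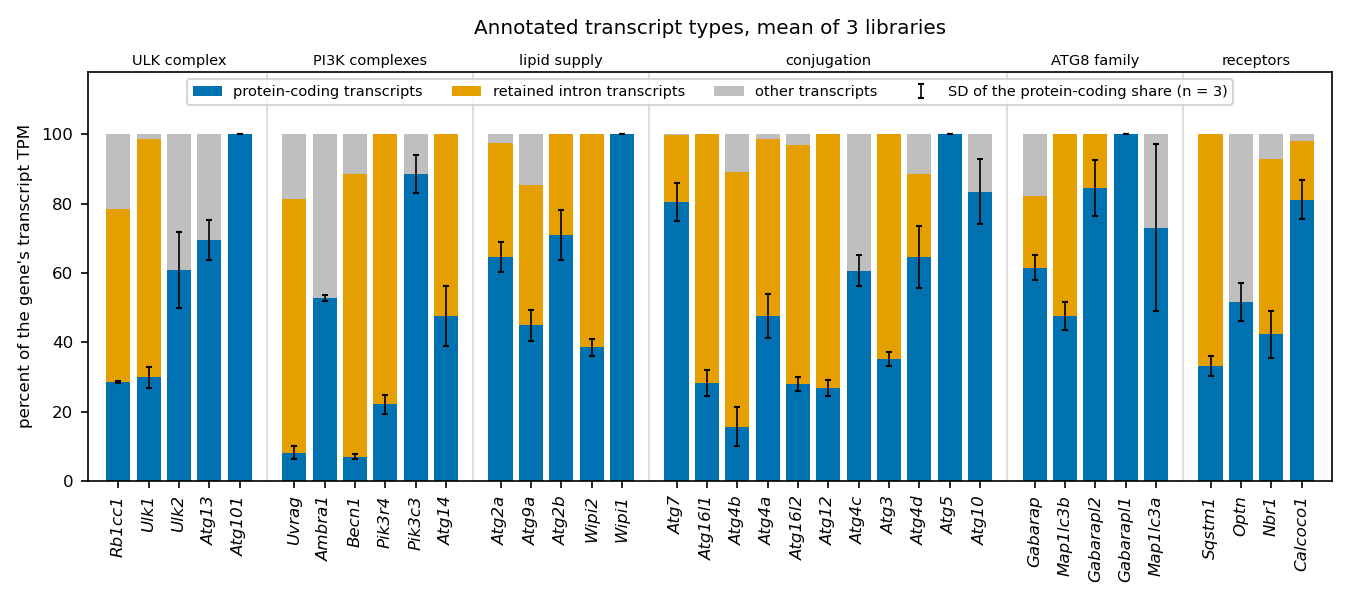
Percent of each gene's TPM in protein-coding, retained intron and other annotated transcripts, mean of 3 libraries, with the SD of the protein-coding share as error bars. Becn1 and Uvrag have the smallest protein-coding shares, 6.98% and 8.13%.

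Becn1 and Uvrag had the smallest shares of TPM in protein-coding transcripts of the 36 genes. Retained intron transcripts held 81.7% ± 4.52 of the TPM of Becn1 and 73.1% ± 3.55 of that of Uvrag. Protein-coding transcripts of Becn1 stood at 3.77 ± 0.408 TPM and those of Uvrag at 6.88 ± 1.64 TPM. Among the 36 genes, Becn1 was the fifth by gene TPM and the 28th by TPM of coding transcripts, and Uvrag moved from the second place to the 16th. The genes that led by coding transcripts were Sqstm1 with 250 ± 123, Atg7 with 42.3 ± 5.48, Ambra1 with 29.1 ± 1.54 and Optn with 23.8 ± 7.77 TPM. In the table estimated from the reads, the retained intron share was lower, 47.4% for Becn1 and 38.4% for Uvrag. The protein-coding share was lower there too, 5.12% for Becn1 and 4.22% for Uvrag. By gene TPM the highest lipid kinase gene was Uvrag, and by coding transcripts it was Ambra1.

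In Sqstm1, 3 retained intron transcripts held 66.9% ± 2.85 of the TPM. Sqstm1-207, of 585 bases, had 172, 176.5 and 348 TPM, and Sqstm1-206, of 457 bases, had 207, 107 and 267 TPM. The coding transcript with the highest TPM, Sqstm1-202, of 2037 bases, had 133, 108 and 258 TPM. Replicate 3 was thus the highest library for each of these 3 transcripts, coding and intron-bearing alike. Sqstm1-207 and Sqstm1-206 keep opposite ends of the same intron, intron 5 of Sqstm1-202 (chr11:50203035-50206022, 2988 bases). The junctions are shown because both transcripts read through a splice site there. Each line gives 12 exon bases and 12 intron bases in transcript order, and the capitals mark the first or last 2 bases of the intron.
Sqstm1-207, donor of intron 5: tcagccctctagGTgagtgagctt
Sqstm1-206, acceptor of intron 5: tctcctctctAGgcattgaggttg
Sqstm1-203, which runs 87 bases into intron 7, had 69.3 ± 20.5 TPM. TPM divides by length, and Sqstm1 held 27.1% of the expected counts of the 36 genes against 49.0% of their TPM.

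Map1lc3b had the largest share of TPM in transcripts across an exon-intron boundary. The spliced form Map1lc3b-201 had 0.69 ± 0.226 TPM and held 5.75% ± 1.21 of the gene's TPM. The retained intron transcript Map1lc3b-202, which contains the whole of intron 2 (2440 bases), had 6.20 ± 1.26 TPM, 52.5% ± 4.08 of the total. Map1lc3b-204 is annotated as protein-coding but is a single exon that runs from exon 1 into intron 1, with 96.7% of its bases intronic, and it had 5.07 ± 1.77 TPM. The annotated type thus does not mark all intron-bearing RNA of this gene. The junctions that the 2 leading transcripts leave unspliced are as follows, with intron ends in capitals.
Map1lc3b-204, donor of intron 1: gccggagctttgGTgagccccgcg
Map1lc3b-202, donor of intron 2: accaagatcccaGTaggttctcct
Map1lc3b-202, acceptor of intron 2: ctctctctgcAGgtgattatagag

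**Figure D5:**
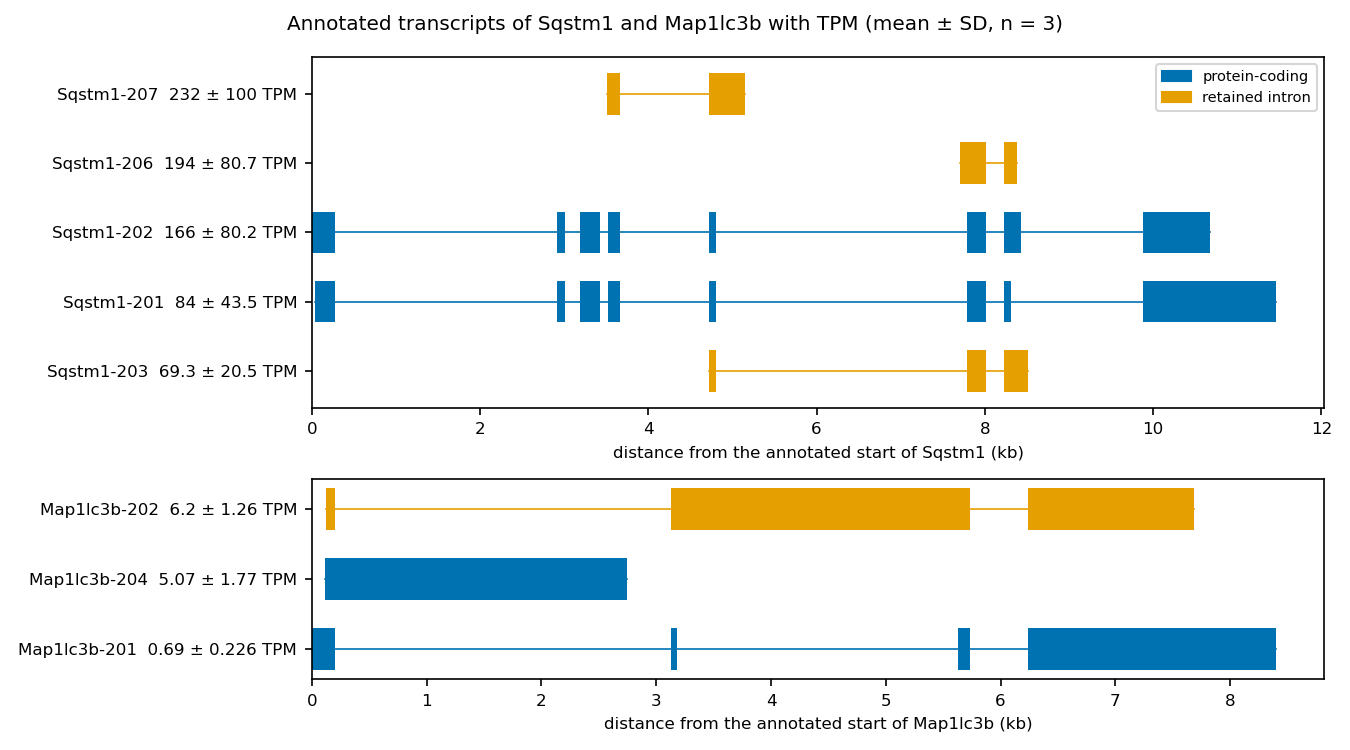
Exons (boxes) of the annotated transcripts of Sqstm1 and Map1lc3b with any TPM, by distance from the gene's annotated start in kb, with mean ± SD TPM over 3 libraries beside each name. The 2 leading Sqstm1 transcripts, at 232 and 194 TPM, end or begin inside the same intron, and the spliced Map1lc3b-201 has 0.69 TPM.

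Other genes with a high retained intron share had the same kind of boundary. Atg3-202 held 64.9% ± 2.02 of the TPM of Atg3 and begins inside intron 2 (4532 bases). Uvrag-202 held 49.4% ± 1.35 of the TPM of Uvrag and ends inside intron 12 (39666 bases). Becn1-210 held 27.8% ± 3.26 of the TPM of Becn1 and contains introns 4 and 7 whole (633 and 822 bases). These junctions are shown as examples from the conjugation and lipid kinase genes, with intron ends in capitals.
Atg3-202, acceptor of intron 2: atccctgcatAGtttgtggcagct
Uvrag-202, donor of intron 12: aaaggagcgagaGTaagtgtcttt
Becn1-210, donor of intron 4: ccccccagccagGTgcttactatt
In the 12 genes without an annotated transcript of the retained intron type, the share of TPM across an exon-intron boundary ran from 0 to 61.8%, with Atg4c highest. In Optn this was the processed transcript Optn-203, with 39.4% ± 5.05 of the TPM.

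The other genes of the pathway were measured from 4 lists. Of 20 genes upstream of autophagy, 19 were detected, with a median percentile of 81.7. Tfe3 led with 45.6 ± 9.31 TPM, followed by Mitf with 45.1 ± 3.75, both encoding factors of the lysosome programme, and Rptor, which encodes the substrate-binding part of the growth kinase complex mTORC1, with 43.2 ± 7.80 TPM. Prkaa2, which encodes a catalytic subunit of the energy sensor AMPK, was not detected, with 4, 5 and 7 counts. All 13 other core genes were detected, with a median percentile of 84.1. Vmp1, a scramblase gene of the endoplasmic reticulum, had 405 ± 42.5 TPM, Tecpr1 had 192 ± 30.1 and Wdfy3 had 90.05 ± 9.88 TPM. Of these, Vmp1 and Tecpr1 lay above Uvrag in each library, while Wdfy3 and Uvrag did not differ beyond their spread.

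Of 14 other receptor genes 12 were detected, with a median percentile of 71.8. Tax1bp1, a receptor of ubiquitinated cargo, had 87.8 ± 11.9 TPM, the mitophagy receptor gene Fkbp8 had 60.0 ± 12.9 and the ferritin receptor gene Ncoa4 had 58.4 ± 1.15 TPM. Calcoco2 had 0 counts in each library, which allows up to 3 counts per library or 0.217, 0.175 and 0.182 CPM, and Stbd1 had 0, 1 and 0 counts. Among the genes named here for receptors that bind ubiquitin, which are not all such genes, Sqstm1, Tax1bp1, Optn and Nbr1 were thus detected and Calcoco2 was not. All 15 genes for fusion with lysosomes were detected, with a median percentile of 88.4. Lamp2 had 137 ± 15.8 TPM and Lamp1 58.9 ± 7.04, both lysosomal membrane proteins, and Vps16, a subunit of the tethering complexes, had 67.9 ± 4.15 TPM. The fusion SNARE gene Vamp7 was lowest of this list, with 16, 51 and 27 counts, and the table estimated from the reads listed it at 0.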

How the data were processed

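The members and lists were chosen with earlier results of these data known. Per the file headers, the authors deposited for each library expected counts, TPM and the posterior SD of each count for genes and for transcripts, made from an alignment to the transcriptome, and estimated counts and TPM for transcripts made from the reads. Build and annotation are mm10 and GENCODE M21, per the notes deposited with the files. Aligner, counting program and strand handling were not given in the sources used here. TPM was used for levels as deposited. Entries that name no gene held 1.13%, 0.324% and 0.279% of counts and were left out.

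Levels are mean ± SD over 3 libraries, and percentiles rank mean log2(TPM + 1) among protein-coding genes. A gene was detected at a mean of at least 10 expected counts. Variation between libraries was tested on rounded counts by chi-square against Poisson sampling, with edgeR 4.0.16 TMM factors in R 4.3.3 and Benjamini-Hochberg adjustment at 0.05 over all tested genes. The script was tested on simulated data. The common biological coefficient of variation from an intercept-only edgeR fit was 0.223. The posterior SD was at most 2.23% of the count for any of the 36 genes and 0 for 24 of them. The main coding transcript of a gene was that with the most coding exons, then the highest TPM. It need not be a leading transcript, and it held 0% of the TPM for Atg13, Atg7 and Atg16l1 and 0.708% for Nbr1. A boundary counted as crossed with 12 bases on each side. Junctions were read from GENCODE M21 transcripts, and promoter windows from RefSeq.

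All 36 genes are named by role. Values per library are given for the 3 highest and the lowest gene of each role and for genes whose highest library was over 1.5 times the lowest. Of the pathway lists the 3 highest and each undetected gene are named. Vamp7, the collagen genes and the transcripts were chosen after their values were seen. Alternatives were other normalizations (DESeq2 1.42.0 size factors, total counts), minimum levels, a pseudocount of 0.1, CPM, the values estimated from the reads, TPM rescaled over protein-coding genes, and 1 replicate left out at a time. Protein sequences were not used here. There is 1 group, so no contrast was fitted.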

Additional observations from a re-analysis of the deposited data

How the results depend on the processing

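Each library limits the low genes most, and limits from a count of 0 cover counting error only. The median percentile of the 36 genes was 67.8 among detected protein-coding genes and 79.4 with the table made from the reads. Their median TPM was 51.4 when TPM was rescaled over protein-coding genes, 16.0 from the reads and 5.58 over protein-coding transcripts alone (chosen after the data were seen). By expected counts, the share of Ulk1 was 55.6%, of Atg2a 52.6%, of Atg4b 29.2%, of Atg16l1 74.4%, of Gabarap 25.3%, and that of Sqstm1 in the 36 genes 27.1%. From the reads, Atg4b held 44.0% and Atg16l1 62.2%, and transcripts across an exon-intron boundary a median of 43.5%. Over protein-coding transcripts alone, the share of Ulk1 was 58.2%, of Atg4b 14.3% and of Wipi2 63.1%. Without replicate 1, 19 of 35 tested genes of the set were called variable, beside 6329 of all 14527 tested. Without replicate 2 it was 12 of 34, beside 3917 of 14008, and without replicate 3 it was 20 of 35, beside 5984 of 14384. DESeq2 size factors gave 22 of 35, beside 7829 of 14320, and total counts gave 21 of 35, beside 8594 of 14320. With genes of 1 count or more, 23 of 36 were called, beside 7761 of 23908. For single genes, TPM from the reads moved by over 1 SD in 28 of 36 genes, upward in 26, and over coding transcripts in 28 of 36, downward in each. The count of detected genes was 34 to 36 under every alternative run. With only the RefSeq window nearest the annotated start, chosen after the data were seen, CACGTG was present for 4 and GGGCGG for 20 genes. No paired analysis was possible because there is 1 group.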

Other observations

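Exons of 12 of the 36 genes overlap exons of another gene on the opposite strand, and since strand handling is not stated, reads of such pairs cannot be told apart where they overlap. The largest partners by level were Fchsd2 with 160 TPM, which shares 25 bases with Atg16l2, and Kri1 with 33.4 TPM, which shares up to 792 bases with Atg4d (9.55 TPM). The antisense gene 4930551O13Rik, with 22.8 TPM, shares 73 bases with Optn. Becn1 shares up to 1297 bases with Cntd1, which had 1.87 TPM, and Sqstm1 shares 580 bases with Mrnip, which had 0.657 TPM, so these partners were far lower than the autophagy gene. Atg9a also shares 1072 bases with Gm29253 on its own strand, at 0.0833 TPM.

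Among the 36 genes, Atg13 and Ambra1 lie next to each other on chromosome 2, 19557 bases apart on opposite strands, at 6.89 and 55.1 TPM. Becn1 and Nbr1 lie 249862 bases apart on chromosome 11, also on opposite strands, at 54.1 and 30.1 TPM. The annotated spans of the 36 genes ran from 1777 bases for Map1lc3a to 288613 bases for Atg10, with a median of 36259.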
